A study of Rattus norvegicus with 93 samples.

Results

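Bone marrow of rats that received oxaliplatin after topotecan (topotecan/oxaliplatin) was compared, 24 h after dosing, with marrow of rats that received topotecan and then the oxaliplatin vehicle (topotecan/D5W). The samples were chosen by their treatment and time labels alone, and they were 7 of the 93 arrays of the series: 4 topotecan/oxaliplatin rats (numbers 53, 54, 59 and 60) and 3 topotecan/D5W rats (numbers 29, 35 and 36). All 7 were male Sprague-Dawley rats, about 8 weeks old, and all received topotecan at 4.7 mg/kg in saline, so the groups differed in whether the second infusion held oxaliplatin at 15 mg/kg or only its vehicle, dextrose in water (D5W). Every rat was dosed once and gave 1 array of whole marrow from a femur. RNA of 1 rat of the topotecan/D5W treatment was not hybridised by the authors because of low integrity. Both of 2 further pairs of groups, from other rats, were set beside this comparison. NaCl/oxaliplatin (4 rats, saline and then oxaliplatin at 15 mg/kg) against NaCl/D5W (4 rats, both vehicles and no drug) showed the same oxaliplatin infusion without topotecan. Oxaliplatin/topotecan (4 rats, both drugs at the same doses in the opposite order) against D5W/topotecan (4 rats, vehicle and then topotecan at 4.7 mg/kg) showed the other infusion order.

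Topotecan traps topoisomerase I on DNA, and a replication fork that meets the trapped enzyme breaks. Oxaliplatin is a platinum compound that forms adducts and crosslinks on DNA. Marrow is among the tissues most exposed to both, because its precursors of granulocytes, red cells and lymphocytes divide rapidly, while macrophages, endothelium and the stromal cells of the niche divide little. DNA damage of either kind stabilises p53, the transcription factor that induces cell cycle inhibitors and death genes. In RNA from whole marrow, fewer cells of a type and less RNA per cell cannot be told apart.

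Levels are log2 values, on which a difference of 1 is a 2-fold change, and ± gives the SD over the rats of a group. Differences are topotecan/oxaliplatin minus topotecan/D5W unless another pair is named. A probe set, the array's unit of measurement, was called when limma's adjusted p was under 0.01 and the fold above 2. The 7 arrays had medians of 8.95 to 9.15 and correlated with each other at 0.929 to 0.984. Marrow identity was checked in the NaCl/D5W rats, where S100a8, a neutrophil calcium-binding protein, averaged 14.71 ± 0.03 and Slc4a1, the red cell anion exchanger, 13.36 ± 0.08 (SD, n = 4). The mean of 25 skeletal muscle genes, which mark tissue from outside the marrow, was 7.67 in topotecan/oxaliplatin rat 53 and 6.29 to 6.86 in the other rats of its group, against 6.32 to 6.89 in topotecan/D5W rats. Rat 35 stood apart from the other topotecan/D5W rats, with the highest cell cycle and erythroid levels and the lowest interferon and platelet levels of the 3. Counts that turn on these rats are given with and without them.

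Marrow of topotecan/oxaliplatin rats had lower levels of genes of mitosis, DNA replication and B cell precursors, and higher levels of p53 target, interferon, stromal and platelet genes, than that of topotecan/D5W rats. The platelet and interferon rises depended more on single rats than the mitosis and p53 target differences did, as given below. Of 12532 probe sets tested, 351 were called, 221 of them higher (1.76%) and 130 lower (1.04%) in topotecan/oxaliplatin marrow. Leaving out rat 29 gave 538 called probe sets and leaving out rat 35 gave 206, against 351 with all 7 rats. Every topotecan/oxaliplatin rat lay beyond every topotecan/D5W rat in 190 of the 221 higher probe sets (86.0%). The same held for 126 of the 130 lower ones (96.9%). Over all probe sets the shares were 13.3% and 22.9% in those directions. Called probe sets were picked by their differences in these same rats, so their larger shares follow in part from that choice. Without a minimum fold, 976 of 7810 genes were higher (12.5%) and 1649 lower (21.1%), and these are the background shares for the counts of list members below. They belong to the fit with all 7 rats. No such share is given for fits with a rat left out, so list counts there are not set against a background. The median difference over all genes was -0.07.

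The genes that fell furthest included Fcnb, Car1 and Ccr2. Fcnb, which encodes the lectin ficolin-B of immature granulocytes and monocytes, stood at 10.48, 8.53, 10.49 and 9.54 in topotecan/oxaliplatin rats, against 13.52, 13.90 and 13.59 in topotecan/D5W rats. The groups were separated by about 3 log2 units at their nearest rats, and the difference was -3.91 (SE 0.27, limma adjusted p = 4.79e-13), a 15.1-fold fall. Car1, the carbonic anhydrase of red cell precursors, was 9.15, 8.27, 7.01 and 7.69 in topotecan/oxaliplatin rats, against 11.45, 12.98 and 10.97 in topotecan/D5W rats, a 13.6-fold fall. Rat 35 held the highest Car1 of the 7, and the difference was -3.77 with it and -3.18 without it. Ccr2, the chemokine receptor by which monocytes leave the marrow, was 7.71, 6.58, 7.72 and 8.01 in topotecan/oxaliplatin rats, against 9.39, 11.03 and 10.25 in topotecan/D5W rats, and fell by 2.72 on the log2 scale (limma adjusted p = 1e-08). Bex4 also separated the groups, with 5.66 to 6.47 in topotecan/oxaliplatin rats and 7.69 to 9.84 in topotecan/D5W rats.

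**Figure D1:**
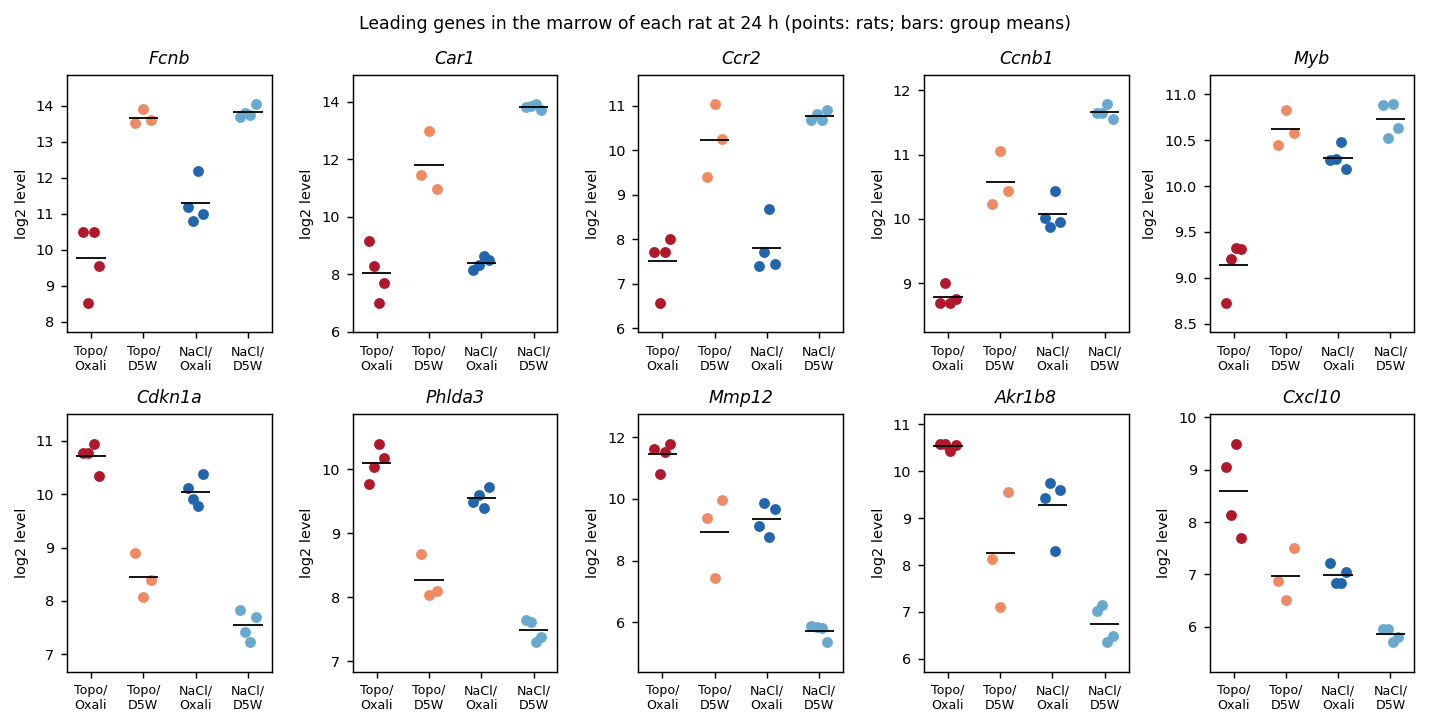
Log2 level (vertical axis, not starting at 0) of 10 leading genes in each rat at 24 h, with 1 point per rat, bars at group means, and groups from left to right topotecan/oxaliplatin, topotecan/D5W, NaCl/oxaliplatin and NaCl/D5W. Fcnb was 8.53 to 10.49 in topotecan/oxaliplatin rats and 13.52 to 13.90 in topotecan/D5W rats, whereas Cdkn1a was 10.35 to 10.95 in topotecan/oxaliplatin rats and 8.07 to 8.90 in topotecan/D5W rats.

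Among the other genes of largest fall were several with a known part in growth and metabolism. Myb, a transcription factor of haematopoietic progenitors, was 8.73 to 9.33 in topotecan/oxaliplatin rats, against 10.45 to 10.83 in topotecan/D5W rats. Its difference was -1.48 (limma adjusted p = 1.89e-09). Psat1, an enzyme of serine synthesis, fell by 1.46, and Ass1, the argininosuccinate synthase of arginine synthesis, fell by 1.55 on the log2 scale. Dnph1, a hydrolase of nucleotide salvage, varied little within either group (8.45 ± 0.06, n = 4, in topotecan/oxaliplatin and 10.09 ± 0.23, n = 3, in topotecan/D5W rats) and fell by 1.63. Sapcd2 fell by 1.62, Tifab by 1.60 and Tfr2, the transferrin receptor 2 of erythroid cells, by 1.60.

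The genes of largest rise came from several cell types. Mmp12, the elastase of macrophages, was 11.63, 10.82, 11.51 and 11.79 in topotecan/oxaliplatin rats, against 9.37, 7.45 and 9.97 in topotecan/D5W rats. The lowest of the topotecan/oxaliplatin rats thus exceeded the highest of the others, and the rise was 5.69-fold (log2 difference 2.51, SE 0.35, limma adjusted p = 7.29e-07, or 1.77 without rat 35). Akr1b8, an aldo-keto reductase, was nearly uniform in topotecan/oxaliplatin rats (10.54 ± 0.07, n = 4) and spread widely in topotecan/D5W rats (8.26 ± 1.24, n = 3), with a difference of 2.29. C1s, a protease of the classical complement pathway, rose by 1.80, Mmp2, the gelatinase of stromal cells, by 1.78, and Ccn2, a matrix-associated growth factor target, by 1.68. The remaining leading genes were LOC102550366 (1.78), Gbp4 (1.73), Arxes1 (1.73), Cxcl10 (1.64), Col8a1 (1.59), Dclk1 (1.55), B3galnt1 (1.52) and Cyp26b1, which degrades retinoic acid (1.49), besides the p53 targets Cdkn1a and Phlda3.

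Genes of mitosis were lower after the combination. Of 35 measured, 32 fell, none rose, and the median difference was -1.12. Ccnb1, the cyclin that drives entry into mitosis, was 8.70, 9.01, 8.70 and 8.75 in topotecan/oxaliplatin rats, against 10.23, 11.06 and 10.43 in topotecan/D5W rats. It fell 3.44-fold (log2 difference -1.78, SE 0.17, limma adjusted p = 3.17e-10). Its kinase partner Cdk1 was 9.98 to 10.49 in topotecan/oxaliplatin rats, against 11.20 to 11.74 in topotecan/D5W rats, a fall of 1.15. Plk1, a mitotic kinase, fell by 1.32, Bub1 of the spindle checkpoint by 1.34, Cdc20, the activator of the anaphase-promoting complex, by 1.26, and the kinesin Kif23 of cytokinesis by 1.41. The proliferation marker Mki67 was 9.86 to 10.52 in topotecan/oxaliplatin rats, against 11.02 to 11.74 in topotecan/D5W rats. Every topotecan/oxaliplatin rat was below every topotecan/D5W rat in 32 of the 35 genes, against 26.5% of all genes. The 3 members that did not pass were Ccnf (-0.23), Gtse1 (0.00) and Cdc25b (0.12). The list's mean ran from 9.09 to 9.39 in topotecan/oxaliplatin rats and from 10.06 to 10.64 in topotecan/D5W rats, rat 35 being the highest, and 29 members fell without that rat.

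Stretches of the promoters of 3 of these genes are shown because the CCAAT box, bound by the factor NF-Y, is a known feature of cell cycle promoters. They are RefSeq sequence (GRCr8), 5′ to 3′ on the gene's strand, with each CCAAT, or ATTGG where it lies on the opposite strand, in capitals: Ccnb1 at chr2:33655201-33655377 (minus strand), Cdk1 at chr20:19265043-19265318 (plus strand) and Plk1 at chr1:186147550-186147694 (plus strand).
Ccnb1: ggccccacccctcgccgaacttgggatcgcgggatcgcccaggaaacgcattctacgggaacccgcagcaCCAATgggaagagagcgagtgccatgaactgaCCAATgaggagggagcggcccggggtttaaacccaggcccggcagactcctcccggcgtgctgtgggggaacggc
Cdk1: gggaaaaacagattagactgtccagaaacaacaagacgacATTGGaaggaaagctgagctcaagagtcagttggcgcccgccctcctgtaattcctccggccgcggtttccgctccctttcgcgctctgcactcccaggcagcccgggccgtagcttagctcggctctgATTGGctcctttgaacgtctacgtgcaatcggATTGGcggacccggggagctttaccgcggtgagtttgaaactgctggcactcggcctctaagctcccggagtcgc
Plk1: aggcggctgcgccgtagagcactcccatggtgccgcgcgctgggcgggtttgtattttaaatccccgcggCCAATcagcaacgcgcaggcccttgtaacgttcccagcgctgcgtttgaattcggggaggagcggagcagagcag
In the 300-base window of each promoter, the letters CCAAT on either strand were in 22 of 28 mitosis genes that fell and had a RefSeq promoter (78.6%), in 2 of 3 other members (66.7%) and in 38.7% of the 6566 promoters of all genes of the table. The match is a description of these windows and not of bound sites.

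The DNA replication list fell less steeply. Of 43 genes, 34 fell and none rose, with a median of -0.63. The helicase subunits Mcm6 and Mcm7 fell by 0.97 and 0.94, the origin factor Orc1 by 1.08 and Uhrf1, which maintains DNA methylation behind the fork, by 1.20. Mcm7 was 10.88 to 11.21 in topotecan/oxaliplatin rats and 11.80 to 12.19 in topotecan/D5W rats, and the topotecan/oxaliplatin rats all lay below the topotecan/D5W rats in 32 of the 43 genes (26.5% of all genes did so). Ccne2, a cyclin of the start of S phase, had a difference of -0.34 (limma adjusted p = 0.0766), and Tyms, thymidylate synthase, one of -0.34 (adjusted p = 0.163).

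Of 35 DNA repair genes, 19 fell and 1 rose, with a median of -0.38. Without rat 35, 12 fell. Exo1, an exonuclease of mismatch repair and recombination, fell by 1.20, the checkpoint kinases Chek2 and Chek1 by 1.13 and 0.86, the helicase Blm by 1.01 and Fancd2 of crosslink repair by 0.86. Tdp1, which removes stalled topoisomerase I from DNA, stood at 8.15 to 8.45 in topotecan/oxaliplatin rats and 8.77 to 8.87 in topotecan/D5W rats and fell by 0.54. The gene that rose was Mgmt, which takes alkyl groups off guanine, at 10.03, 10.33, 10.44 and 10.03 in topotecan/oxaliplatin rats, against 9.69, 9.19 and 9.43 in topotecan/D5W rats, a difference of 0.77.

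Targets of p53 were higher after the combination. Of 23 measured, 11 rose and none fell, with a median of 0.58. Cdkn1a, which encodes the cell cycle inhibitor p21, was 10.78, 10.77, 10.95 and 10.35 in topotecan/oxaliplatin rats, against 8.90, 8.07 and 8.40 in topotecan/D5W rats. The rise was 4.78-fold (log2 difference 2.26, SE 0.25, limma adjusted p = 1.08e-08). Phlda3, a repressor of Akt, was 9.77 to 10.40 in topotecan/oxaliplatin rats and 8.03 to 8.68 in topotecan/D5W rats, a rise of 1.83. Ephx1 rose by 1.46, Ddit4, an inhibitor of mTOR, by 1.17, the death gene Bbc3 by 0.89, the death receptor Fas by 0.74 and Ccng1 by 0.72. Beside marrow given both vehicles, Bbc3 averaged 9.84 ± 0.16 in topotecan/oxaliplatin (n = 4), 8.95 ± 0.07 in topotecan/D5W (n = 3) and 8.80 ± 0.12 in NaCl/D5W rats (n = 4). Members that did not pass included Aen, a p53-induced nuclease (0.70, adjusted p = 0.0179), Gdf15 (0.91, adjusted p = 0.0959), Ddb2 (-0.14) and Apaf1 (-0.18). The list also rose with oxaliplatin without topotecan. In NaCl/oxaliplatin against NaCl/D5W rats, 16 members were higher and 2 lower (median 0.78), where 27.3% of all genes were higher. The list's mean was 9.37 to 9.47 in NaCl/oxaliplatin rats and 9.30 to 9.44 in topotecan/oxaliplatin rats.

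**Figure D2:**
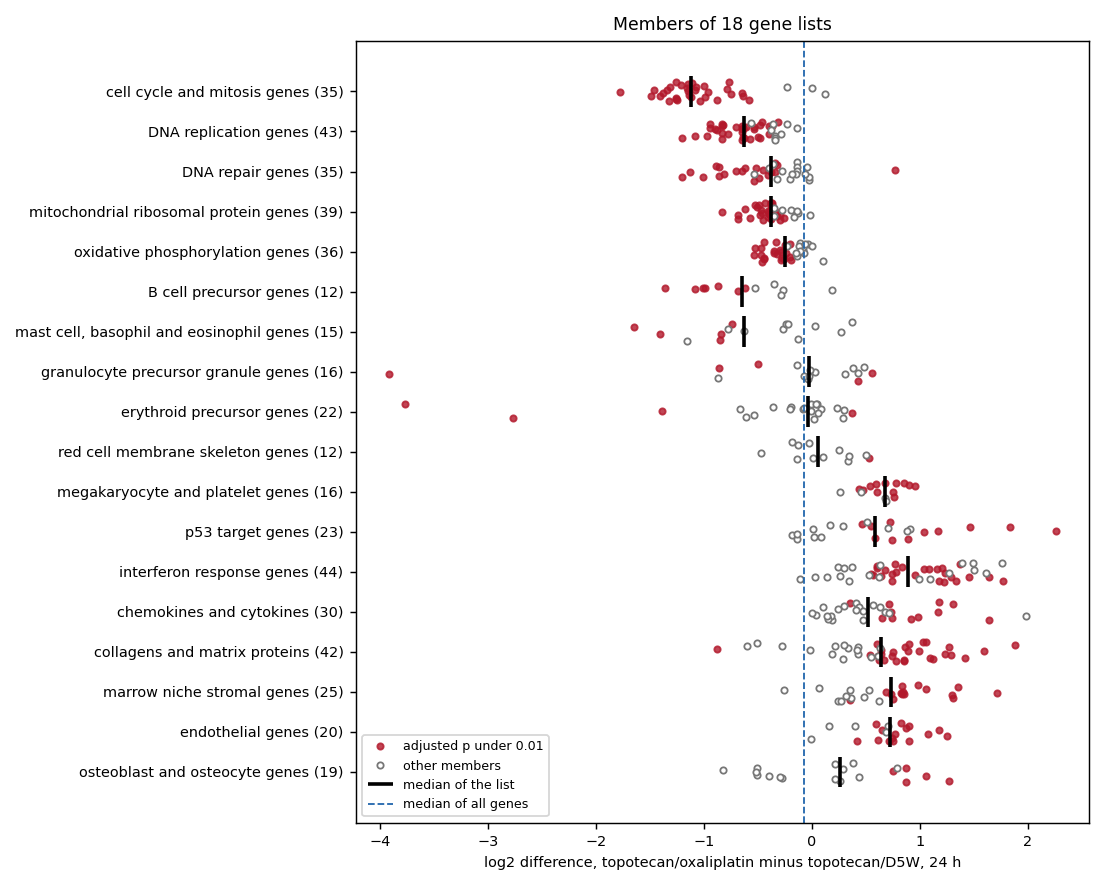
Log2 difference, topotecan/oxaliplatin minus topotecan/D5W at 24 h (horizontal axis), of each member of 18 gene lists (rows, number measured in brackets), with filled points for members at adjusted p under 0.01, open points for the others, black bars at list medians and a dashed line at the median of all genes (-0.07). The mitosis list has its median at -1.12 and the interferon list at 0.89, while the granulocyte and erythroid lists centre near 0 with a few members below -2.

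In the granulocyte lineage few of the listed genes fell. Of 16 granule and precursor genes, 3 fell (18.8%, against 21.1% of all genes), 2 rose and 11 did not pass, with a median of -0.03. Those that fell were Fcnb, Gfi1 and Cebpe, and the last 2 are transcription factors of granulocyte differentiation. Gfi1 was 7.71 to 8.02 in topotecan/oxaliplatin rats and 8.58 to 8.90 in topotecan/D5W rats, a fall of 0.86 (limma adjusted p = 4.25e-08). Cebpe fell by 0.50 and did not pass without rat 35 (adjusted p = 0.0194), nor without rat 36 or rat 60. Camp, a granule peptide of later precursors, averaged 13.65 ± 0.06 in topotecan/oxaliplatin rats (n = 4) and 13.69 ± 0.12 in topotecan/D5W rats (n = 3). Of 15 genes of mature neutrophils, 3 rose and none fell, Cxcr2, the receptor for neutrophil release, by 0.71 and Fcgr3a, an antibody receptor, by 1.09. Either rat 29 or rat 35 left out reduced the 3 to 1.

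Among 15 monocyte genes, 3 fell (Ccr2, Irf8 and Klf4) and 1 rose (Fcgr1a). These shares, 20.0% and 6.67%, were not above the 21.1% and 12.5% of all genes. Irf8, the transcription factor of monocyte precursors, was 9.77 to 10.06 in topotecan/oxaliplatin rats, against 10.65 to 11.14 in topotecan/D5W rats, a fall of 0.91. Csf1r, the receptor for macrophage growth factor, showed 11.07 to 11.22 in topotecan/oxaliplatin rats and 10.98 to 11.22 in topotecan/D5W rats, a difference of 0.05 (limma adjusted p = 0.766). Of 19 genes of resident macrophages, 5 rose and none fell, or 3 rose without rat 35. The scavenger receptor Cd163 (-0.13) and the surface marker Adgre1 (-0.13) did not pass.

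B cell precursor genes were lower in the combination. Of 12, 7 fell and none rose, with a median of -0.65, and 4 fell without rat 36. Ebf1, which specifies the B lineage, was 10.84 to 11.34 in topotecan/oxaliplatin rats, against 11.98 to 12.20 in topotecan/D5W rats, a fall of 0.99 (limma adjusted p = 6.71e-05). On other probe sets Ebf1 had differences of -0.62 and -0.50 and did not pass (limma adjusted p = 0.026 and 0.0589). Cd24, Lef1 and the kinase Blk fell by 1.36, 1.01 and 0.87. Vpreb3, part of the immature receptor complex, fell by 1.08, and by 0.81, not past the threshold, without rat 36. Ms4a1, which encodes CD20 of mature B cells, had a difference of -0.29 (adjusted p = 0.356).

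Of 15 genes of mast cells, basophils and eosinophils, 5 fell and none rose. Mcpt10, a mast cell protease, was 10.82, 10.89, 10.76 and 11.15 in topotecan/oxaliplatin rats, against 12.37, 12.14 and 12.45 in topotecan/D5W rats. The groups lay 1 log2 unit apart at their nearest rats and differed by -1.41 (limma adjusted p = 1.68e-07). Ms4a2, a chain of the IgE receptor, fell by 0.85 and the basophil protease Mcpt8 by 1.65, although rat 54 (11.89) overlapped the topotecan/D5W rats. The count was 2 without rat 36 and 3 without rat 29 or without rat 53.

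With all rats included, T cell and NK cell genes ran the other way. Of 19, 7 rose and 1 fell, with a median of 0.37. Cd3e of the T cell receptor complex was 8.40 to 9.30 in topotecan/oxaliplatin rats, against 7.92 to 8.07 in topotecan/D5W rats, a rise of 0.80 (limma adjusted p = 0.00082), and the interleukin-2 receptor chain Il2rb rose by 0.82. The member that fell was Nkg7, a granule protein of cytotoxic cells, at 11.86 to 12.31 in topotecan/oxaliplatin rats and 12.67 to 13.16 in topotecan/D5W rats. The 7 became 4 without rat 29 and 3 without rat 35, and an excess over all genes was not tested in those fits.

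Red cell genes showed little further change on the whole, with large falls in a few. Of 12 genes of the red cell membrane and its skeleton, 1 rose (Epb41, by 0.53) and none fell, with a median of 0.06. Of 18 genes of heme synthesis and iron uptake, 4 fell (22.2%, against 21.1% of all genes): Tfr2, Cpox, Tfrc and Abcb10. Of 22 erythroid precursor genes, Car1, Bex4 and Bcl11a fell (13.6%, under the share of all genes) and Nfe2 rose. Cpox, an enzyme of heme synthesis, was 9.06 to 9.21 in topotecan/oxaliplatin rats, against 9.51, 11.04 and 9.70 in topotecan/D5W rats, with rat 35 far above its group. Its fall of 0.97 became 0.49 without that rat (limma adjusted p = 8.37e-05 with and 0.00742 without). Rhag, a red cell membrane channel, was 8.70 to 9.42 in topotecan/oxaliplatin rats, against 8.18, 10.64 and 8.88 in topotecan/D5W rats, and the groups overlapped. Slc4a1, mentioned above, was 10.80 to 11.80 in topotecan/oxaliplatin rats and 10.62 to 11.75 in topotecan/D5W rats, and its difference of 0.34 (adjusted p = 0.0956) was 0.72 without rat 35 (adjusted p = 0.000246).

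The same lists were below vehicle level after topotecan alone. All 12 membrane genes were lower in topotecan/D5W than in NaCl/D5W rats, where 17.4% of all genes were lower and 18.5% higher. The membrane list had a median of -2.50 in topotecan/D5W against NaCl/D5W rats and of -1.62 in NaCl/oxaliplatin against NaCl/D5W rats. The transcription factor Sox6, which acts in red cell maturation, averaged 5.11 ± 0.28 in topotecan/oxaliplatin (n = 4), 5.65 ± 0.87 in topotecan/D5W (n = 3), 6.32 ± 0.29 in NaCl/oxaliplatin and 9.60 ± 0.18 in NaCl/D5W rats (n = 4 each). The NaCl/D5W rats thus lay over 3 log2 units above the groups given any drug.

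Whether the oxaliplatin difference itself depended on topotecan was tested as a difference of differences, the topotecan/oxaliplatin minus topotecan/D5W difference less the NaCl/oxaliplatin minus NaCl/D5W difference. It was positive and called for 357 of 12532 probe sets (2.85%) and negative and called for 143 (1.14%). Of the 357, 345 had fallen with oxaliplatin in rats without topotecan. The median difference of the 357 was -0.02 with topotecan and -1.43 without it. The tested value includes the difference without topotecan, so this direction follows in part from the choice of probe sets. Of all 12532 probe sets, 3781 were lower without topotecan at adjusted p under 0.01. All 12 membrane genes, 14 of 18 heme and iron genes and 18 of 22 erythroid precursor genes passed with a positive value, against 7.98% of all genes. All 12 membrane genes were lower in NaCl/oxaliplatin than in NaCl/D5W rats, a comparison in which 32.5% of all genes were lower and 27.3% higher. For Plek2, for example, the oxaliplatin difference was -0.20 after topotecan and -3.19 without it, and the values differed by 2.99 (SE 0.31, limma adjusted p = 7.53e-09). Ypel4 (3.05), Aqp3, a water and glycerol channel (2.93), Uros of heme synthesis (2.84), Spint1 (2.78), Sox6 (2.74) and Prnp (2.54) followed.

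**Figure D3:**
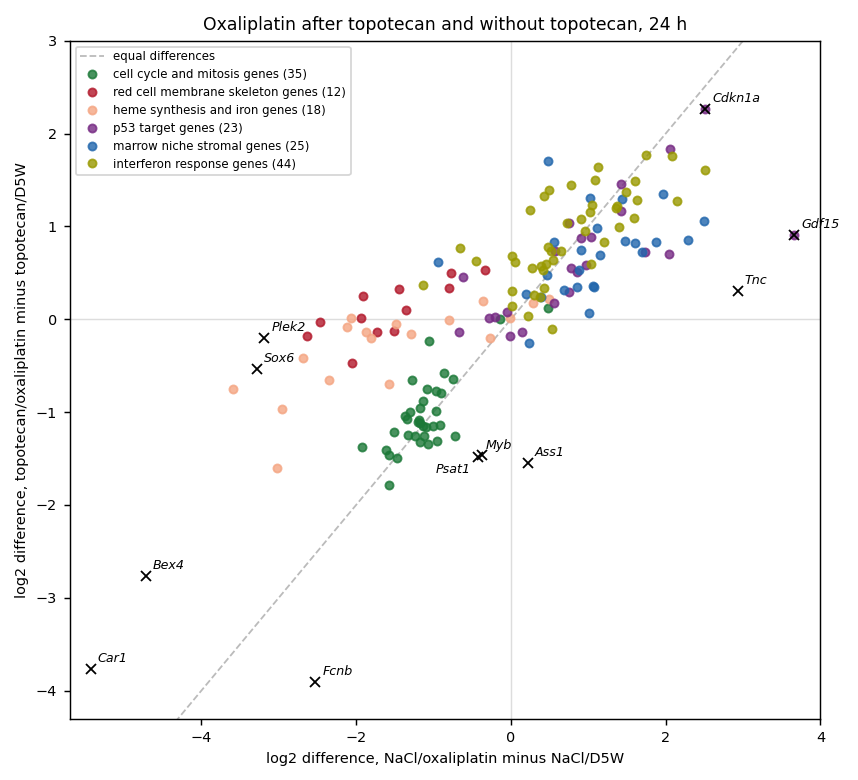
Log2 difference for oxaliplatin given after topotecan (vertical axis, topotecan/oxaliplatin minus topotecan/D5W) against that for oxaliplatin without topotecan (horizontal axis, NaCl/oxaliplatin minus NaCl/D5W) at 24 h, with 1 point per gene of 6 lists, crosses for named genes and a dashed line of equal differences. Mitosis genes lie around -1.12 on the vertical and -1.14 on the horizontal axis, red cell membrane genes around 0.06 and -1.62, and Myb, Psat1 and Ass1 below the line.

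For 122 of the 143 negative values the level had risen with oxaliplatin in rats without topotecan. The median difference of the 143 was 0.99 without topotecan and -0.15 after it. This direction again follows in part from the choice of probe sets. Of all 12532 probe sets, 3123 were higher without topotecan at adjusted p under 0.01. Gdf15, a stress-induced cytokine, averaged 8.86 ± 0.45 in topotecan/oxaliplatin (n = 4), 7.94 ± 0.62 in topotecan/D5W (n = 3), 10.10 ± 0.72 in NaCl/oxaliplatin and 6.44 ± 0.25 in NaCl/D5W rats (n = 4 each), which gave a difference of differences of -2.75 (limma adjusted p = 0.000856). The matrix protein Tnc gave -2.63 and the mast cell chymase Cma1 -2.58. Of the 19 osteoblast and osteocyte genes, 7 passed with a negative value and none with a positive one, against 7.44% of all genes in the negative direction. Similar shares were negative in other lists: 6 of 16 granulocyte precursor granule genes, 7 of 19 resident macrophage genes and 5 of 15 mast cell, basophil and eosinophil genes.

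A few genes fell with oxaliplatin after topotecan and not, or much less, without it. Ass1 averaged 9.32 ± 0.45 in topotecan/oxaliplatin (n = 4), 10.87 ± 0.50 in topotecan/D5W (n = 3), 10.73 ± 0.29 in NaCl/oxaliplatin and 10.51 ± 0.13 in NaCl/D5W rats (n = 4 each). The topotecan/oxaliplatin mean was the lowest of the 4, and the difference of differences was -1.77 (SE 0.33, limma adjusted p = 0.000142). Myb averaged 9.14 ± 0.28 in topotecan/oxaliplatin, 10.62 ± 0.19 in topotecan/D5W, 10.31 ± 0.13 in NaCl/oxaliplatin and 10.73 ± 0.18 in NaCl/D5W rats, and gave -1.05 (SE 0.21, adjusted p = 0.000206). Psat1 gave -1.09. Gfi1, Cebpe, Nkg7 and Mcpt10 gave -1.45, -1.35, -1.32 and -1.19, and the levels of Gfi1, Cebpe and Nkg7 rose with oxaliplatin in rats without topotecan, by 0.59, 0.85 and 0.55. Fcnb was lower in both settings, with -3.91 after topotecan and -2.53 without it, and these differed by -1.39 (adjusted p = 0.00515).

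For the mitosis list the 2 oxaliplatin differences were of similar size, with medians of -1.12 after topotecan and -1.14 without it. Of its 35 members, 1 passed the difference of differences. The DNA replication list differed, with medians of -0.63 after topotecan and -1.1 without it. Of its 43 members, 16 passed the difference of differences with a positive value (37.2%, against 7.98% of all genes) and 0 with a negative one. Of the 221 probe sets called higher after topotecan, 215 (97.3%) were also higher with oxaliplatin in rats without topotecan, where 47.6% of all probe sets were. Of the 130 called lower, 124 (95.4%) were also lower, against 52.4% of all. The calls shared by both were 144 (65.2% of the 221 and 23.9% of the 602 of the other comparison) and 84 (64.6% of the 130 and 12.8% of the 655). The comparison without topotecan called 4.8% of probe sets higher and 5.23% lower. Its drug and vehicle rats came under partly different sample code columns of the labels, with 1346-02 in both groups (1346-02 and 1346-04 for NaCl/oxaliplatin, 1346-01, 1346-02 and 1346-03 for NaCl/D5W). What these codes stand for was not given in the sources used, and their part in the result was not tested.

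Platelet genes were higher after the combination in a way that turned on single rats. Of 16 genes of megakaryocytes and platelets, 12 rose and none fell, with a median of 0.68. The count was 1 without rat 35 and 7 without rat 59. Treml1, a platelet granule receptor, was 12.60, 12.46, 12.76 and 12.97 in topotecan/oxaliplatin rats, against 12.00, 11.74 and 11.80 in topotecan/D5W rats, a rise of 0.85 (limma adjusted p = 0.000984 and 0.00986 without rat 35). The topotecan/oxaliplatin rats all lay above the topotecan/D5W rats in 13 of the 16 genes, against 14.7% of all genes. Pf4, platelet factor 4, did not pass (0.26, adjusted p = 0.023).

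Interferon response genes were higher on average, with a wide spread among the rats of each group. Of 44, 25 rose and none fell, with a median of 0.89, but in only 11 did every topotecan/oxaliplatin rat exceed every topotecan/D5W rat (25.0% against 14.7% of all genes). Isg15, a ubiquitin-like antiviral protein, was 13.12, 12.51, 13.17 and 10.34 in topotecan/oxaliplatin rats, against 10.65, 9.18 and 11.72 in topotecan/D5W rats. Rat 60 was below 2 of the 3 topotecan/D5W rats, and the difference of 1.77 (SE 0.54, limma adjusted p = 0.00814) was 1.10 without rat 35 (adjusted p = 0.157). Mx1, an antiviral GTPase, was 9.05 to 11.85 in topotecan/oxaliplatin rats and 7.92 to 11.16 in topotecan/D5W rats, a difference of 1.27 (adjusted p = 0.0572). The list's mean was 11.05, 10.58, 11.00 and 9.80 in topotecan/oxaliplatin rats 53, 54, 59 and 60, against 9.67, 9.21 and 10.23 in topotecan/D5W rats 29, 35 and 36. The count of 25 was 11 without rat 35, 16 without rat 53, 5 without both, and 6 among the 4 rats of the sample code column 1346-03 (59 and 60, against 35 and 36).

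A smaller set of these genes separated the groups. Gbp2, an interferon-induced GTPase, was 11.13, 10.58, 11.40 and 10.59 in topotecan/oxaliplatin rats, against 9.42, 9.56 and 10.11 in topotecan/D5W rats, and rose by 1.23 (limma adjusted p = 1.64e-05 and 0.000454 without rat 35). Cxcl10, a chemokine for T cells, was 9.06, 8.14, 9.50 and 7.69 in topotecan/oxaliplatin rats, against 6.87, 6.51 and 7.51 in topotecan/D5W rats, a rise of 1.64. Oas1a, a sensor of double-stranded RNA, was 11.09, 10.87, 11.11 and 9.98 in topotecan/oxaliplatin rats, against 9.78, 9.05 and 9.60 in topotecan/D5W rats, a rise of 1.29. Topotecan/oxaliplatin rat 60 was the lowest or nearly the lowest of its group for all 3. Ifitm3, which blocks virus entry, rose by 1.20, and Gbp4 by 1.73. For Gbp4 the oxaliplatin difference without topotecan was 0.42, and the difference of differences was 1.31 (limma adjusted p = 0.00163).

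Promoter stretches of the 3 genes are shown for the core of the interferon-stimulated response element, that is GAAA, then 2 bases of any kind, then GAAA, which is in capitals (as its reverse complement where it lies on the opposite strand). They are RefSeq sequence (GRCr8), on plus strands: Cxcl10 at chr14:15988816-15988902, Gbp2 at chr2:234005626-234005775 and Oas1a at chr12:41330355-41330510, where 2 matches overlap.
Cxcl10: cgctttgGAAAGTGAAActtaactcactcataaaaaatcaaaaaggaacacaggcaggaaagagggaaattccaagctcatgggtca
Gbp2: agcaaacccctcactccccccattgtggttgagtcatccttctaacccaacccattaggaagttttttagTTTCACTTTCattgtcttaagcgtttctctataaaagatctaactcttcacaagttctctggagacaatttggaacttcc
Oas1a: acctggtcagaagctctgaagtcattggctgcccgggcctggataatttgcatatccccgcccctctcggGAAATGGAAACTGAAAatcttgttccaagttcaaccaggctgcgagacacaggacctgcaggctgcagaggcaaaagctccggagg
The core was in the promoter window of 12 of 19 interferon genes that rose (63.2%), in 9 of 15 other members (60.0%) and in 3.3% of all 6566 promoters. Members that rose and members that did not pass thus held it at a similar share.

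Chemokines and cytokines overlapped this list in part. Of 30, 11 rose and none fell, with a median of 0.52, and 6 rose without rat 35. Besides Cxcl10, Cxcl9 and Cxcl11, these included Il33, an alarmin of stromal and endothelial cells, at 8.63, 8.87, 9.12 and 9.61 in topotecan/oxaliplatin rats, against 7.82, 7.60 and 7.83 in topotecan/D5W rats, a rise of 1.31 (limma adjusted p = 3.46e-07). Il7, the growth factor of B cell precursors, was 9.05 to 9.46 in topotecan/oxaliplatin rats and 8.12 to 8.52 in topotecan/D5W rats and rose by 0.98. Ccl2, a monocyte chemokine, was above the topotecan/D5W rats in all 4 topotecan/oxaliplatin rats (9.76 to 10.28, against 7.38 to 8.86), but its difference of 1.98 did not pass (SE 0.70, adjusted p = 0.0205).

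**Figure D4:**
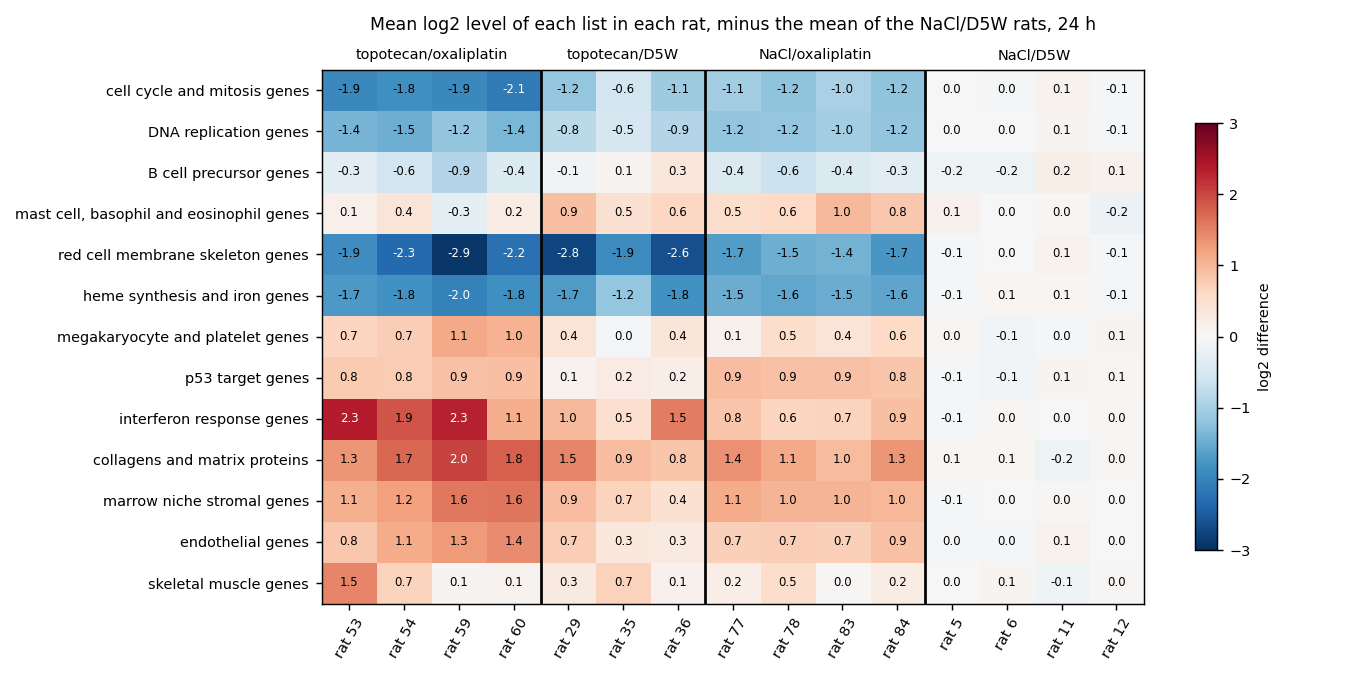
Mean log2 level of 13 gene lists (rows) in each rat (columns) at 24 h, given as the difference from the mean of the NaCl/D5W rats, for topotecan/oxaliplatin, topotecan/D5W, NaCl/oxaliplatin and NaCl/D5W rats from left to right. The mitosis row is lower in each topotecan/oxaliplatin rat than in any topotecan/D5W rat (list means 9.09 to 9.39 against 10.06 to 10.64), whereas the interferon row overlaps between the groups (9.80 to 11.05 against 9.21 to 10.23).

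Stromal, vascular and matrix genes rose together. Of 25 genes of marrow niche stroma, 15 rose and none fell (median 0.73), as did 15 of 20 endothelial genes (0.72) and 13 of 20 smooth muscle and contractile genes (0.61). Of 42 collagens and matrix proteins, 26 rose and 1 fell (0.64). The matrix count was 17 without rat 35 and 17 without rat 36, and the smooth muscle count 8 without rat 35. With the sample code column of the labels as a block, 11 matrix and 9 endothelial genes rose. Jag1, a Notch ligand of the niche, was 8.74, 8.47, 9.05 and 8.59 in topotecan/oxaliplatin rats, against 7.79, 7.26 and 7.17 in topotecan/D5W rats, a rise of 1.30 (limma adjusted p = 1.58e-08). Cxcl12, the chemokine that holds stem cells in the niche, rose by 0.35 and did not pass without rat 35 (adjusted p = 0.0346). Kitlg, the stem cell factor, was 10.70, 10.71, 10.72 and 11.08 in topotecan/oxaliplatin rats, against 10.29, 10.03 and 9.62 in topotecan/D5W rats. It rose by 0.82, and by 0.64, not past the threshold, without rat 36. In NaCl/oxaliplatin against NaCl/D5W rats, 19 niche, 15 endothelial, 17 smooth muscle and 35 matrix genes were higher, where 27.3% of all genes were. There 1 niche and 1 matrix gene were lower, and the medians were 1.02, 0.67, 0.75 and 1.25.

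Among endothelial genes, the angiopoietin receptor Tek was 9.16 to 9.60 in topotecan/oxaliplatin rats, against 8.39 to 8.70 in topotecan/D5W rats, a rise of 0.90 (limma adjusted p = 3.33e-05). The phosphatase Ptprb rose by 1.25, the sialomucin Emcn by 1.07 and the growth factor receptor Kdr by 0.87. In the contractile list, Cav1, the coat protein of caveolae, rose by 1.49, Tagln by 1.37 and the tropomyosin Tpm2 by 1.24.

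In the matrix list, the basement membrane collagen gene Col4a1 was 9.58, 10.29, 10.80 and 10.64 in topotecan/oxaliplatin rats, against 9.29, 8.58 and 8.85 in topotecan/D5W rats, a rise of 1.42 (limma adjusted p = 5.89e-06), and the basement membrane genes Col4a2, Lamb1 and Nid1 rose by 0.90, 1.27 and 1.12. Rat 53 was the lowest of its group for Col4a1, and rat 29 the highest of its own. Mgp, an inhibitor of calcification, rose most in the list (1.88, or 1.54 and not past the threshold without rat 36), although rat 53 at 10.25 lay within the topotecan/D5W range of 9.16 to 10.39. The fibrillar collagens of bone did not pass: Col1a1 was 12.09 to 12.91 in topotecan/oxaliplatin rats and 12.26 to 13.33 in topotecan/D5W rats (difference -0.51, adjusted p = 0.432), and Col1a2 had a difference of -0.28. The 1 member that fell was Fn1, fibronectin, by 0.88. In rats of the code column 1346-03 alone, the rises of Col4a1 and Tagln were 2.01 and 1.97.

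Of 15 matrix proteases and their activators, 8 rose and none fell, or 5 without rat 35. Beside Mmp12 and Mmp2 these included Plau, the urokinase, at 8.63 to 9.47 in topotecan/oxaliplatin rats, against 7.81 to 8.04 in topotecan/D5W rats, a rise of 1.14. Mmp23 rose by 1.34. Mmp13 and Mmp14, collagenases of bone and stroma, had differences of -0.45 and 0.07 and did not pass. Among 19 osteoblast and osteocyte genes, 5 rose and none fell. The growth factors Bmp2 and Bmp4 rose by 1.27 and 1.06 and the adhesion molecule Cdh11 by 0.87, while Bglap, the osteocalcin of mature osteoblasts (-0.82, adjusted p = 0.152), and Dmp1 of osteocytes (-0.30) did not pass. The skeletal muscle list, in which rat 53 was the highest of the 7, had 1 of 25 genes higher (Tnnc1, by 0.73) and a median of 0.18, and its part in these results was not tested.

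Genes of protein synthesis and respiration fell by small and even amounts. Of 24 cytosolic ribosomal protein genes 22 fell (median -0.24), of 39 mitochondrial ribosomal protein genes 31 (median -0.38) and of 36 oxidative phosphorylation genes 22 (median -0.25), and none rose in any of the 3 lists. Without rat 35 the last 2 counts were 19 and 10. Rpl12 was 13.30 to 13.47 in topotecan/oxaliplatin rats, against 13.70 to 13.86 in topotecan/D5W rats, a fall of 0.41 (limma adjusted p = 1.25e-07), and Mrpl12 fell by 0.83. After topotecan alone against NaCl/D5W, 1, 2 and 6 members of these lists were lower, with medians of -0.09, 0.03 and -0.11. The topotecan/D5W arrays are shared by both comparisons. In NaCl/oxaliplatin against NaCl/D5W rats, 24, 33 and 26 members were lower, with medians of -0.31, -0.47 and -0.38, where 32.5% of all genes were lower. The difference of differences passed with a positive value for 0, 2 and 5 members, against 7.98% of all genes. In the other infusion order 13, 32 and 22 members were lower, where 19.3% of all genes were.

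In the other infusion order, oxaliplatin/topotecan against D5W/topotecan at 24 h, fewer probe sets were called, 10 higher (0.0798%) and 67 lower (0.535%). Leaving out rat 65 of the oxaliplatin/topotecan group gave 123 in place of 77. Of the 221 probe sets called higher in topotecan/oxaliplatin rats, 207 (93.7%) were also higher here, where 39.2% of all probe sets were, with medians of 1.17 and 0.37. Of the 130 called lower, 129 (99.2%) were also lower, where 60.8% of all were, with medians of -1.16 and -0.93. Fcnb averaged 9.41 ± 0.62 in oxaliplatin/topotecan rats and 13.06 ± 0.06 in D5W/topotecan rats (n = 4 each), a difference of -3.65 beside -3.91, and Car1 gave -3.16 beside -3.77. Mitosis genes fell in 28 of 35 cases (median -0.91) and p53 targets rose in 9 of 23 (0.52), with Cdkn1a at 10.67 ± 0.33 in oxaliplatin/topotecan rats and 8.75 ± 0.39 in D5W/topotecan rats.

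Few stromal, platelet and interferon genes passed in that order. Of the niche, endothelial, platelet and interferon lists, 2, 1, 0 and 1 members rose, with medians of 0.25, 0.20, 0.10 and 0.46. In the test of the difference between the orders, 0 members of any of the 4 lists passed. Only 5 of all 7810 genes did so (0.064%), so a count of 0 does not set these lists apart. D5W/topotecan rat 89 stood apart, with a mean of the platelet list of 10.83 against 11.72 to 12.24 in the other rats of its group and of the endothelial list of 8.53 against 9.21 to 9.36. Without it the 4 medians were 0.03, 0.00, -0.16 and 0.59, the counts that rose 1, 1, 0 and 1, and the members that passed the difference between the orders 1, 3, 1 and 0. With all rats, 1.42% of all genes were higher and 19.3% lower in oxaliplatin/topotecan against D5W/topotecan rats at an adjusted p under 0.01. Shares of all genes without rat 89 are not given, so the counts without it are not set against a background. Mmp12 averaged 10.93 ± 0.55 in oxaliplatin/topotecan rats and 10.37 ± 0.89 in D5W/topotecan rats (n = 4 each), a difference of 0.55 (limma adjusted p = 0.203) beside 2.51.

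The difference between the orders was itself tested in all 93 arrays, a test chosen after the data were seen. It was called for 5 probe sets, all with the larger rise in the topotecan/oxaliplatin order (0.0399% of those tested), and for 0 in the opposite direction, where unadjusted p was under 0.05 in either direction for 1348. The 5 were of C1qtnf2 (difference between the orders 1.18), Ackr4, a scavenging chemokine receptor (1.41), Plac9 (1.35), Mmp23, on another probe set than above (1.20), and Faxdc2 (1.44). With limma's trend and robust settings none was called, and after a second quantile normalization 4 were. Leaving out single rats, also chosen after the data were seen, moved the count widely. It was 114 (113 of them with the larger rise in the topotecan/oxaliplatin order) without D5W/topotecan rat 89, 51 without topotecan/D5W rat 29, 25 without topotecan/oxaliplatin rat 53 and 9 without oxaliplatin/topotecan rat 72. It was 1 without oxaliplatin/topotecan rat 66 or D5W/topotecan rat 90, and 0 without topotecan/D5W rat 35 or 36, topotecan/oxaliplatin rat 59 or 60, oxaliplatin/topotecan rat 71 or D5W/topotecan rat 95 or 96. The values for Mmp12 (1.95, adjusted p = 0.0371) and for the stromal genes named above did not pass. The orders were run in different rats under partly different code columns.

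**Figure D5:**
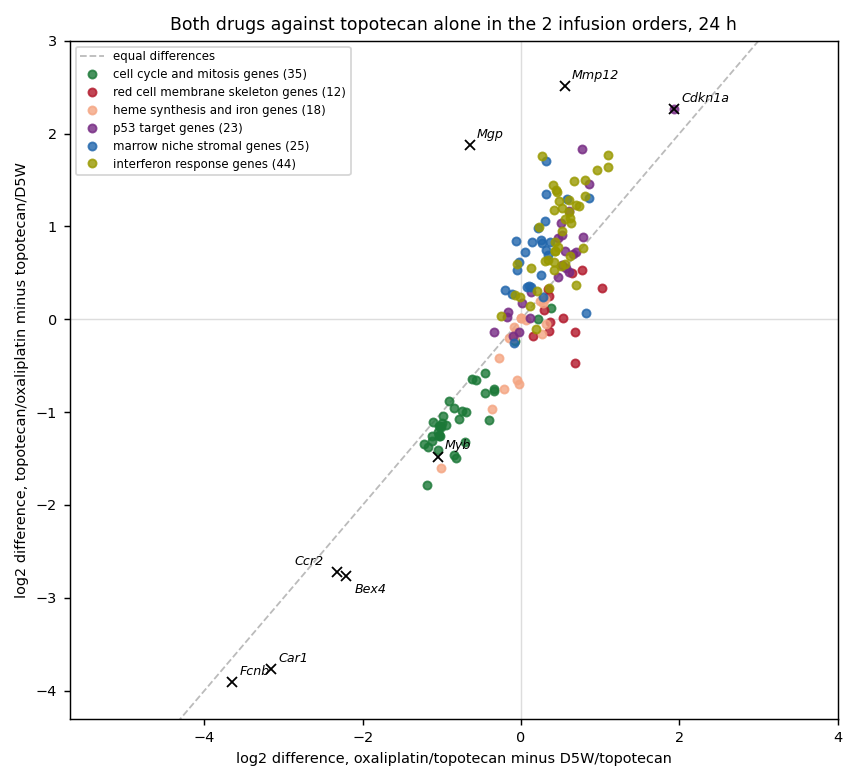
Log2 difference for both drugs against topotecan alone in the topotecan-first order (vertical axis, topotecan/oxaliplatin minus topotecan/D5W) against that in the oxaliplatin-first order (horizontal axis, oxaliplatin/topotecan minus D5W/topotecan) at 24 h, with 1 point per gene of 6 lists, crosses for named genes and a dashed line of equal differences. Fcnb (-3.91 and -3.65) and the mitosis genes (medians -1.12 and -0.91) lie near the line, and niche stromal genes (0.73 and 0.25) above it.

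Most of the 24 h difference had not appeared earlier. At 1 h, 0 probe sets were called by limma, with 1577 at an unadjusted p under 0.05 and 1 called when all 93 arrays were fitted together. At 6 h, 2 were called higher (0.016%) and 19 lower (0.152%), and 0.115% of genes were higher and 1.14% lower at an adjusted p under 0.01. The genes among them, named after their values were seen, included Ebf1, lower by 2.37 and 1.64 on 2 probe sets, the B cell scaffold Bank1 and the calcium signalling gene Camk2d, which were lower, and Il1rl1, the receptor of Il33, which was higher by 1.43. These Ebf1 probe sets, which are not the one that passed at 24 h, had differences of -0.62 and -0.50 at 24 h. Neither passed there (limma adjusted p = 0.026 and 0.0589). None of the mitosis, interferon, p53 target, niche or platelet genes passed at 6 h. Topotecan/oxaliplatin rat 52 of that time had a skeletal muscle mean of 9.78, which is 3.48 above the median array, and the muscle list had a median difference of 0.84 at 6 h, or 0.06 without that rat. Without it 26 probe sets were called (2 higher and 24 lower), among them all 21 called with it, and the 5 lists again had no member that passed.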

How the data were processed

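Marrow RNA was primed with oligo-d(T) and hybridised to Affymetrix Rat Genome 230 2.0 arrays. The authors computed the deposited log2 values by the robust multichip average (RMA), which subtracts background, sets all arrays to 1 quantile distribution and summarises probes by median polish, and then removed uninformative probe sets by a principal component filter, so genes outside the 12560 kept were not measured here. They left out 1 outlying array of another group. No further normalization was applied. After removal of 28 array controls, 12532 probe sets were tested, of which 10002 carry 1 gene symbol, 292 several and 2238 none. Where a gene had several probe sets, that with the highest average level in the 93 arrays stood for it (7810 genes).

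Differences were fitted with limma 3.58.1 (R 4.3.3, default eBayes), with 1 mean per treatment and time, in the 47 arrays of topotecan/oxaliplatin, topotecan/D5W and the matching NaCl groups at 1, 6 and 24 h (35 residual degrees of freedom), since the study fitted these treatments together. The other infusion order was fitted in the remaining 46 arrays and the difference between orders in all 93. P-values were Benjamini-Hochberg adjusted over 12532 probe sets. A probe set was called at adjusted p under 0.01 and a fold above 2, and list members were counted at adjusted p under 0.01. The number of arrays limits the precision, and each rat is 1 replicate.

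Named genes were the 15 of largest rise and 15 of largest fall among called probe sets with groups that did not overlap, members of 41 gene lists, and the 10 of largest difference of differences. The comparison, the lists and these rules were chosen with earlier results of these data known. Of 62 other probe sets of the named genes, 0 differed in the opposite direction, but not all passed. Those of Epb41 (0.18, limma adjusted p = 0.391) and Tpm2 (0.27, adjusted p = 0.3) did not, while those of Cxcl12 (0.52 and 0.71) did. Promoters (250 bases before to 50 after the start) come from RefSeq, GRCr8. Alternatives were other sets of arrays, normalizations, limits and a sample code block, and leaving out each rat. The study's chosen gene list of 26 (13 higher, 1 lower) was picked from these samples and is not independent evidence.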

Additional observations from a re-analysis of the deposited data

Results flagged for a closer look

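Among the 275 sets of 4 topotecan/oxaliplatin values examined, 12 held a rat far from the other 3 by Dixon's criterion, where chance gives about 1 in 20. Rat 59 was apart for Akr1b8 (10.44), Blk (7.45), Cpa3, a mast cell protease (8.82), Sdf2l1 (11.80) and Timp1 (12.94). Rat 60 was apart for Foxm1 (7.54), Kitlg (11.08) and Ska1 (7.66). Rat 54 was apart for Ccnb1 (9.01), Mcpt8 (11.89) and the mean of the cholesterol synthesis genes (8.94), and rat 53 for Mgp (10.25). In Akr1b8, Ccnb1 and Kitlg the separated rat still lay on the same side of every topotecan/D5W rat.

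The oxaliplatin difference after topotecan and that without topotecan differed, in limma's test of the difference of differences with the same limits on p and fold, for 45 named genes. The value was positive for red cell genes: Ypel4 (3.05), Plek2 (2.99), Aqp3 (2.93), Uros (2.84), Spint1 (2.78), Sox6 (2.74), Rhag (2.45), Klf1 (2.00), Cpox (1.99), Abcb10 (1.70), Car1 (1.66), Ank1 (1.58), Tfr2 (1.42), Gata1 (1.35) and Slc4a1 (1.14), and for Prnp (2.54), Bex4 (1.95), the cyclins Ccne1 (1.92) and Ccne2 (1.83), Gbp4 (1.31) and Gadd45a (1.08). It was negative for the stromal and bone genes Tnc (-2.63), Serpinh1 (-1.82), Tagln (-1.76), Bmp4 (-1.43), Cdh11 (-1.33) and Bmp2 (-1.07), for the p53 targets Gdf15 (-2.75), Aen (-1.33) and Ccng1 (-1.01), and for the granulocyte and mast cell genes Cma1 (-2.58), Mcpt1 (-1.60), Gfi1 (-1.45), Fcnb (-1.39), Cebpe (-1.35), Ms4a2 (-1.33), Mcpt10 (-1.19) and Epx (-1.18). The remaining values were Ass1 (-1.77), Nkg7 (-1.32), Psat1 (-1.09), Cd3e (-1.05), Myb (-1.05), Prom1 (-1.02) and Cd163 (-1.02).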

How the results depend on the processing

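No paired analysis was possible because each rat gave 1 array and no rat number is shared between groups. No named gene's called difference between topotecan/oxaliplatin and topotecan/D5W rats at 24 h reversed under any of the alternatives run. The 351 called probe sets (63.0% higher) became 134 with only the 7 arrays (38.1% higher), 227 without the probe sets of lowest mean level (49.8%), 768 in the 4 rats of code column 1346-03 (78.3%), 1671 at a fold above 1.5 and 3707 with no minimum fold (1446 higher and 2261 lower). They numbered 206 to 538 with 1 rat left out and 272 without rats 53 and 35, an alternative chosen after seeing the data. The causes were not tested, and fits of fewer arrays also have fewer degrees of freedom. At 1 h, 1 was called in place of 0 with all 93 arrays or after a second quantile normalization. The other infusion order gave 56 to 123 with 1 rat left out, and the difference between orders 0 in place of 5 with trend and robust settings and 0 to 114 with 1 rat left out. With only the 7 arrays, the list counts of 12 platelet, 7 B cell, 25 interferon, 11 p53, 32 mitosis, 34 replication, 26 matrix, 15 niche and 15 endothelial genes became 0, 2, 1, 5, 16, 3, 0, 3 and 2. With the code column as a block, platelet, interferon, matrix and endothelial counts were 7, 8, 11 and 9. Interferon counts were 12 with the 24 h arrays alone, 11 with all 93, 6 in code column 1346-03 and 5 without rats 53 and 35, where the platelet count was 3. The niche count was 9 without those of lowest mean level. With 1 rat left out, platelet counts were 1 to 13, B cell 4 to 7, interferon 11 to 36 and matrix 17 to 29. Of 184 named genes past the threshold, 130 stayed past it with each rat left out and 47 under all 18 alternatives.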

Other observations

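Gene lists not described above had some members that passed, in several lists at shares near those of all genes (12.5% higher and 21.1% lower). Of 24 immediate early genes, 8 rose (33.3%) and 2 fell. Atf3, a stress-induced transcription factor, was 7.56, 8.00, 8.01 and 7.50 in topotecan/oxaliplatin rats, against 6.77, 6.20 and 6.54 in topotecan/D5W rats, a rise of 1.26 (limma adjusted p = 0.00453, or 0.0384 without rat 35). Myc, a driver of growth, fell by 0.71 with 8.87 to 9.52 in topotecan/oxaliplatin rats and 9.85 to 10.09 in topotecan/D5W rats. The 8 became 4 without rat 35 or rat 59. Of 26 heat shock and unfolded protein genes, 7 fell (26.9%) and 2 rose (7.69%), or 4 fell without rat 35, and these shares are close to those of all genes. Hspd1, the mitochondrial chaperone, fell by 0.55 and Sdf2l1 of the endoplasmic reticulum by 0.74, while the small heat shock protein Hspb1 was 7.32 to 7.85 in topotecan/oxaliplatin rats, against 6.34 to 6.65 in topotecan/D5W rats, a rise of 1.21.

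Of 20 oxidant and metal response genes, 4 rose (Akr1b8, Gsta1, Sod2 and Gstp1) and 1 fell, the cytosolic dismutase Sod1, by 0.53, and 2 rose without rat 35. The share that rose was 20.0%, against 12.5% of all genes. Gsta1, a glutathione transferase, was 9.92 to 10.27 in topotecan/oxaliplatin rats, against 8.34 to 9.15 in topotecan/D5W rats, a rise of 1.22 (limma adjusted p = 9.63e-07). Hmox1, the heme oxygenase, had a difference of 0.29 (adjusted p = 0.118). Of 11 adipocyte genes, 4 rose. Fabp4, a fatty acid carrier, was 12.11 to 12.91 in topotecan/oxaliplatin rats, against 10.78 to 11.25 in topotecan/D5W rats, a rise of 1.42, and Lpl, a lipase, rose by 1.35. Of 22 complement and coagulation genes 6 rose and none fell, and the proteases C1r and C1s rose by 1.06 and 1.80. Counts in other lists were 3 higher and 2 lower of 20 lysosome genes, 1 and 3 of 19 hypoxia and glycolysis genes, 5 and 0 of 21 death receptor and caspase genes, 0 and 3 of 12 stem and progenitor genes, 0 and 1 of 8 MHC class II genes, 0 and 2 of 16 cholesterol genes, 0 and 2 of 5 histone genes and 0 and 0 of 6 cartilage genes. The letters TGACNNNGC, the core of the antioxidant response element, were in the promoter windows of 3 of the 4 oxidant genes that rose (75.0%), in 3 of 15 other members (20.0%) and in 15.1% of all 6566 promoters.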
